A study of Homo sapiens with 9 samples.

Results

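The HOX genes are described here in TYUC-1, which the labels give as a neuroendocrine esophageal carcinoma line grown in suspension, before and during exposure to EPZ-6438, an inhibitor of the histone methyltransferase EZH2. The genes were taken by name: every row whose symbol was HOXA, HOXB, HOXC or HOXD followed by a number from 1 to 13, with antisense genes left out. This gave 39 genes of the 35762 in the table, 11 of the HOXA cluster, 10 of HOXB, 9 of HOXC and 9 of HOXD. Poly-A RNA was sequenced in 3 libraries each on day 0, day 3 and day 6, and the labels call them biological replicates. The treatment label of each of the 9 libraries is EPZ-6438, and the protocol gives 2 uM EPZ-6438 or DMSO. The sources used here do not say if the day 0 cultures were given DMSO, and no vehicle library of day 3 or day 6 was analysed here, so inhibitor and days in culture cannot be told apart. TYUC-1 is 1 line, so the replicates are cultures of that line and p-values measure the spread between them.

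HOX genes encode homeodomain transcription factors that give cells their position along the body axis. They lie in 4 clusters, and within a cluster the gene number follows the order on the chromosome, from anterior genes with low numbers to posterior genes with high numbers. In embryos the order on the chromosome goes with the order in which the genes are used along the axis. Polycomb repressive complex 2, in which EZH2 is the catalytic subunit, methylates histone H3 over HOX genes that are kept silent, while trithorax group proteins keep others active. Adult epithelia and carcinomas often retain part of the HOX pattern of the tissue they come from.

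Paralogous HOX genes, which share a number across clusters, encode near-identical homeodomains, so their transcripts have to be told apart by their other bases. The homeoboxes, the 180 bases that encode the homeodomain, are shown for number 9 genes because HOXB9 had the largest rise, from no count on day 0. All were read from GENCODE release 29 transcripts on GRCh38, lie in exon 2 of the 2 exons of the transcript used and are coding throughout. Capitals mark the bases that differ from HOXB9.
HOXB9: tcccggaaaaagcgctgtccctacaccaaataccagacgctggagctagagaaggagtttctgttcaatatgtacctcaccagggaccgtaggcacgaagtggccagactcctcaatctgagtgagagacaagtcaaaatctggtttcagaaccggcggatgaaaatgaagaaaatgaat
HOXC9: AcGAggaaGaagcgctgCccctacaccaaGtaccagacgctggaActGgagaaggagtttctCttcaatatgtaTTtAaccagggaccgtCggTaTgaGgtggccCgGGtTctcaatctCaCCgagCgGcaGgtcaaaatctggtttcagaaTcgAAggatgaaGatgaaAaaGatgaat
HOXD9: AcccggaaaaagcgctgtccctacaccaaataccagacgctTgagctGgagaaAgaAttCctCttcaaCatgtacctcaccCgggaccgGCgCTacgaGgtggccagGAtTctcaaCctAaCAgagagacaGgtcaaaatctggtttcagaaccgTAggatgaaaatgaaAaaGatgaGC
The HOXB9 homeobox lies at chr17:48622921-48623100 on the minus strand. Those of HOXC9 (chr12:54002465-54002644, plus strand) and HOXD9 (chr2:176123969-176124148, plus strand) differ from it at 32 and 28 bases. The longest run that HOXD9 shares with HOXB9 is 40 bases. Over all annotated transcripts, 0.392% of the 31-base words of HOXB9 and 0.586% of those of HOXB8 also occur, on either strand, in another gene.

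Other HOX genes share more sequence with their neighbours, so their separate counts are less certain. HOXC4, HOXC5 and HOXC6 have exons in common: 13.3% of the 31-base words of HOXC5 occur in another gene of the table, nearly all of them in HOXC4. HOXD10 and HOXD11 share 16.1% and 20.5% of theirs with genes of the table, mostly with each other, and HOXB6 shares 16.2%, mostly with HOXB3. Antisense transcripts cover 62.2% of the words of HOXA7 (HOXA-AS3) and 29.8% of those of HOXA11 (HOXA11-AS). They also cover 35% of those of HOXA6 (HOXA-AS3) and 15.5% of those of HOXA10 (HOXA10-AS). AC004080.3, a gene of the table, holds 12.3% of the words of HOXA9 and 9.01% of those of HOXA10. Other overlapping genes hold 78.2% of the words of HOXD4 and 61.9% of those of HOXD3 (AC009336.2), 49.3% of HOXD1 (AC009336.3), 29.4% of HOXA4 (AC004080.6) and 28% of HOXC5 (AC012531.2). HOX cluster noncoding RNAs, 18 in the list drawn up for them, were not analysed here and whether the counting used strand is not stated, so reads of both partners cannot be told apart.

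RefSeq start windows (GRCh38.p14, from 250 bases before to 50 bases after a start) were matched for 20 of the 39 HOX genes, with 26 distinct windows. They held a median of 22.5 CpG dinucleotides each, against a median of 14 over all 35116 windows of the table, and 19 of the 26 were above that median. Most of the 26 were starts of HOXA genes, several of them of HOXA3, and HOXB1 was the only HOXB gene matched. The observed to expected CpG ratio had a median of 0.855 against 0.58, while the GC share was close, at 58% and 58.7%. Dense CpG is a known feature of the promoters that Polycomb complexes occupy. TATAAA was found on either strand in 5 of the 26 windows (2 of HOXA10 and 1 each of HOXA3, HOXA9 and HOXD13) and in 11.53% of all windows. The 250 bases upstream of the start are shown for the most abundant HOX gene (HOXA9), for the start that HOXC4 and HOXC5 share, and for HOXB1, which had no counts, with CpG in capitals.
HOXA9: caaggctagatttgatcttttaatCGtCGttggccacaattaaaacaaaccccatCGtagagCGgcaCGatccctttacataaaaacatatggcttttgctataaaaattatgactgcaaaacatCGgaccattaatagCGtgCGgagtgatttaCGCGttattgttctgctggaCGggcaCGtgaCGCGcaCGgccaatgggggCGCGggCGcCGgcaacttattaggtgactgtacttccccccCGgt
HOXC4 and HOXC5: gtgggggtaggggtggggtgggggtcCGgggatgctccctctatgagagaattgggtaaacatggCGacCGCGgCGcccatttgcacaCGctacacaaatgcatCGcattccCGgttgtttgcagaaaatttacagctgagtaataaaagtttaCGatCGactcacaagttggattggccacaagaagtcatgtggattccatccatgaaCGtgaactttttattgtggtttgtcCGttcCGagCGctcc
HOXB1: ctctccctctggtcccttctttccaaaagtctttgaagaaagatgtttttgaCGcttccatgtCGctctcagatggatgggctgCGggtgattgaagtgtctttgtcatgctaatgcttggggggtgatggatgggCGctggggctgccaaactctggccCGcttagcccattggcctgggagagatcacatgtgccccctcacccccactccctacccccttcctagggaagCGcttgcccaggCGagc
The HOXA9 stretch (chr7:27165538-27165787, minus strand) holds 20 CpG, the HOXC4 and HOXC5 stretch (chr12:54016638-54016887, plus strand) 14 and the HOXB1 stretch (chr17:48531012-48531261, minus strand) 7. HOXB1 was thus the poorest in CpG of these 3 stretches, though not of all HOX stretches. That of HOXD4 held 4 and those of some HOXA3 starts 0 and 4, and both genes had counts in every library.

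Libraries held 21638874 to 31235055 estimated counts. Levels are in CPM, counts scaled to the same library total with TMM, a method that sets most genes equal between libraries. A count of 0 allows up to 0.0979 to 0.141 CPM, depending on the library, for counting error only. D0_2, written as day and replicate, had the lowest scaling factor (0.9055, against at least 0.9807 in the other 8). Correlations of log levels within a day reached down to 0.9776 on day 0 and 0.9908 on the other days. Calls of HOX genes that change without D0_2 are given beside the gene. As a check on the label, the neuroendocrine markers ENO2 (371 ± 23.8 on day 0, SD, n = 3) and UCHL1 (129 ± 24.3) were present and CHGA was at 0 in all 9 libraries.

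Cells before exposure already expressed HOX genes of all 4 clusters, with HOXB the lowest. Per kilobase of transcript (CPM divided by the gene's median transcript length), the 10 highest HOX genes on day 0 were HOXA9, HOXC10, HOXA7, HOXC4, HOXA10, HOXD10, HOXC6, HOXA5, HOXB7 and HOXC5. HOXA9 stood at 182 ± 26.7 CPM per kilobase and HOXC10 at 102 ± 15.5, and their libraries did not overlap with each other or with those of HOXA7 (68.3 ± 4.28). HOXC4 and HOXA10 overlapped, as did HOXC6, HOXA5, HOXB7 and HOXC5 along that order. With the longest transcript as the length, 8 of these 10 remained among the 10 highest, and HOXA9 stayed first. HOXA9 alone made up 17.1% of the summed HOX level in CPM.

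Summed over its genes, the HOXA cluster stood at 341 ± 36 CPM on day 0, HOXC at 299.6 ± 30.5, HOXD at 129 ± 4.93 and HOXB at 20.7 ± 1.18. In counts within a library, HOXB gave 2.5% to 2.75% of all HOX counts on day 0. Genes 9 to 13 gave 61.9% to 65.2% of the HOXA counts and 72.9% to 74.6% of the HOXD counts on day 0, but only 3.5% to 5.03% of the HOXB counts. At no more than 1.03 CPM in any library, HOXA13, HOXB5, HOXD12, HOXB1 and HOXB2 were among the lowest. HOXB1 and HOXB2, the most anterior genes of their cluster, had no count in any of the 9 libraries. HOXA13 ranged from 0.304 to 0.569 CPM over all libraries, HOXB5 from 0.474 to 1.03 and HOXD12 from 0.043 to 0.304, and neither HOXA13 nor HOXB5 passed the test in any comparison.

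**Figure D1:**
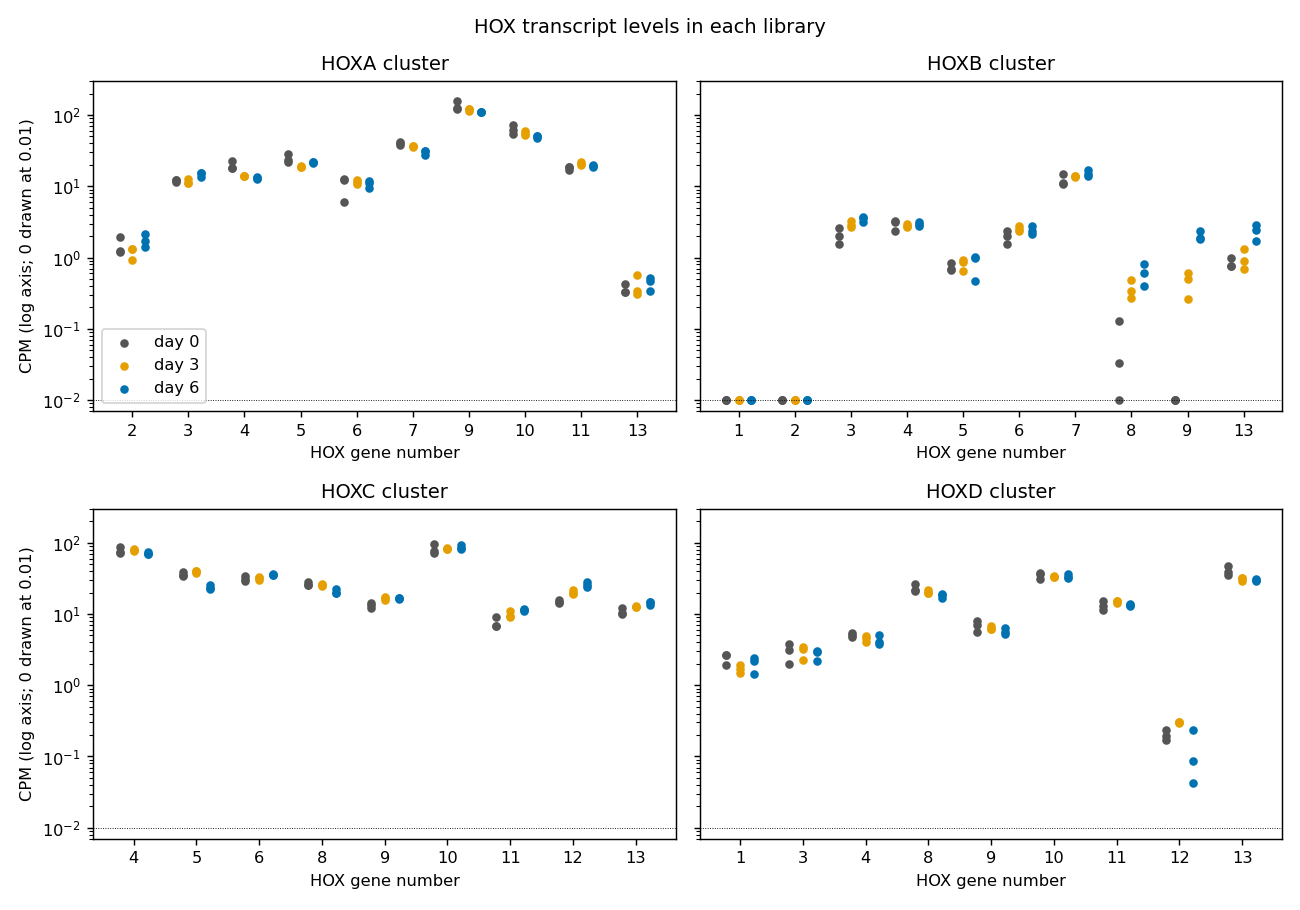
HOX transcript levels in CPM (log axis, 0 drawn at 0.01) in every library for the HOX genes described, by cluster and gene number, with day 0 in grey, day 3 in orange and day 6 in blue. HOXA, HOXC and HOXD genes sit mostly between 1 and 158 CPM on all days, while HOXB8 and HOXB9 start at or near 0 and HOXB1 and HOXB2 stay there.

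The filter on low counts kept 36 of the 39 HOX genes; HOXB1, HOXB2 and HOXD12 were not tested. Day 3 and day 6 were each set against day 0, for the HOX genes that differed early and at the end of exposure, and then against each other. A gene is called when its adjusted p (edgeR quasi-likelihood test, all 9 libraries, Benjamini-Hochberg over 15345 genes) is under 0.05. At day 3 the test called 5 HOX genes as higher (22.5% of all tested genes were) and 3 as lower (18.1% of all). HOXB8, HOXB9, HOXC9, HOXC11 and HOXC12 rose, and HOXA4, HOXA5 and HOXD13 fell. At day 6 it called 10 as higher (28.9% of all) and 8 as lower (25.7% of all). HOXA3, HOXB3, HOXB7, HOXB8, HOXB9, HOXB13, HOXC9, HOXC11, HOXC12 and HOXC13 rose, and HOXA4, HOXA7, HOXA9, HOXA10, HOXC5, HOXC8, HOXD8 and HOXD13 fell. From day 3 to day 6, HOXA3, HOXB9, HOXB13 and HOXC12 rose (4 of 36, 11.5% of all) and HOXA7, HOXC5 and HOXC8 fell (3 of 36, 4.76% of all). These 7 genes compare with 16.3% of all tested genes called in either direction. Libraries of those days did not overlap for 18 of 36 HOX genes (43.5% of all). The 2 comparisons with day 0 share those libraries.

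The count of HOX genes called was thus no larger than that of the table as a whole in either comparison with day 0: 8 of 36 on day 3 against 40.6% of all, and 18 of 36 on day 6 against 54.6%. The libraries did not overlap between the days for 13 of 36 HOX genes on day 3 (53.8% of all) and for 19 of 36 on day 6 (58.7% of all). Their median log2 fold change was 0.02 on day 3 and 0.05 on day 6, beside 0.01 and 0.01 over all tested genes. HOX genes together held 0.0729% to 0.0791% of the counts of a day 0 library, 0.0763% to 0.0779% on day 3 and 0.0754% to 0.0759% on day 6. Day 0 overlapped both later days, and day 6 lay below day 3. With library size as the only scaling, the median of all genes moved to 0.09 on day 3 and 0.13 on day 6. With that scaling the calls were 9 higher and 3 lower on day 3 (75% of the calls higher, against 62.5%), and 12 and 5 on day 6 (70.6% against 55.6%). Without D0_2, 8 HOX genes were higher on day 3 and 12 on day 6.

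Of 5 tested HOX genes with a day 0 mean under 1 CPM, 3 rose by day 6 and none fell, where 55.1% of all 2684 such genes rose and 0.857% fell. HOXB8 and HOXB9 passed the filter through counts on the later days, where they are high, so their rises are no support for an increase of the group. Of the rest, HOXB13 rose and HOXA13 and HOXB5 were not called. Of the 31 HOX genes at 1 CPM or more, 7 rose and 8 fell by day 6 (23.4% and 30.9% of 12661 genes). None of the 31 changed as much as 2-fold, and 7.73% of all genes at that level were called with a change of at least 2-fold. The called changes of at least 2-fold were thus rises of HOXB8 and HOXB9 on day 3 (2 of 36, 9.18% of all) and of HOXB8, HOXB9 and HOXB13 on day 6 (3 of 36, 14.9% of all).

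**Figure D2:**
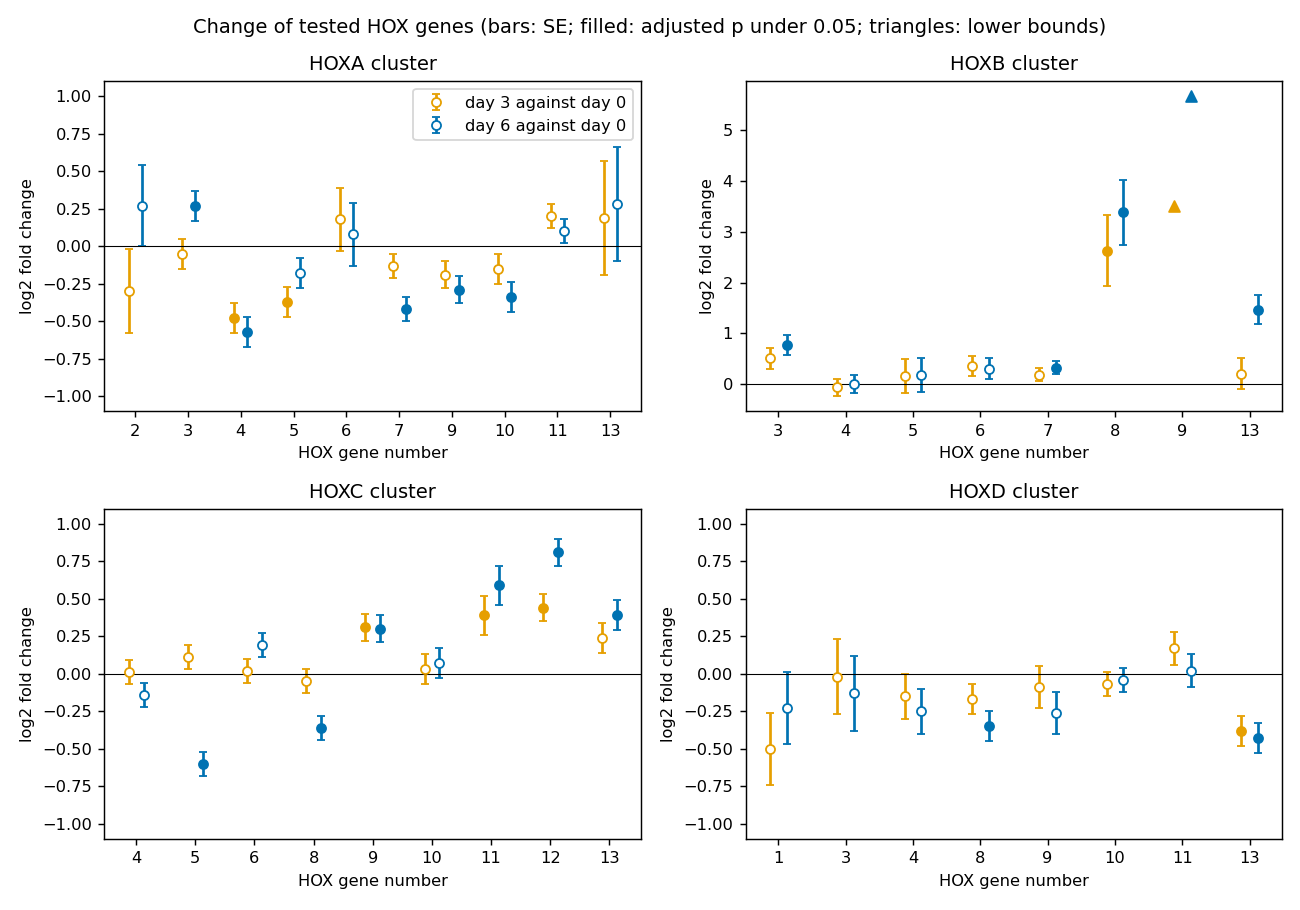
Log2 fold change of tested HOX genes against day 0, by cluster and number, on day 3 (orange) and day 6 (blue), with SE bars; filled points were called and triangles are lower bounds for HOXB9, which had no count on day 0. HOXC genes 9 and 11 to 13 lie above 0 and HOXC5 and HOXC8 below it on day 6, HOXB8 and HOXB9 reach the highest values, and the HOXB axis is wider than the others.

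In the sentences on single genes, values are CPM of replicates 1, 2 and 3 in that order. The HOXB cluster (chromosome 17, 48528526 to 48729178) had the largest rises by day 6, those of HOXB9, HOXB8 and HOXB13. HOXB9, a posterior factor (chromosome 17, minus strand), was at 0, 0 and 0 on day 0, 0.261, 0.502 and 0.609 CPM on day 3 and 1.85, 2.37 and 1.89 on day 6. No day overlapped another: the gene was uncounted at the start and was higher in every day 6 library than in every day 3 library. In pooled counts this was 0, 36 and 154, at least 11.4-fold higher on day 3 and at least 50.8-fold higher on day 6 against a floor of 3 counts over the day 0 libraries (adjusted p = 0.000446 and 5.03e-06). From day 3 to day 6 the ratio was 4.48 (95% interval 3.1 to 6.63), with adjusted p = 0.00146. HOXB9 kept these calls in every alternative that tested it. On day 6 its mean per kilobase of median transcript length was 0.789 ± 0.112 CPM, against 149 ± 1.78 for HOXA9 and 10.9 ± 0.141 for HOXC9.

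HOXB8, its neighbour, was at 0.0326, 0.128 and 0 on day 0, 0.335, 0.268 and 0.478 on day 3 and 0.403, 0.603 and 0.818 on day 6. Every library of day 3 and day 6 was above every library of day 0, while day 3 and day 6 overlapped. The 3 days held 4, 28 and 45 counts, a ratio to day 0 of 6.62 (95% interval 2.32 to 26) on day 3 and 11.1 (95% interval 4.06 to 42.6) on day 6 (adjusted p = 0.0105 and 0.000864). The gene did not pass between day 3 and day 6 (adjusted p = 0.32).

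HOXB13, the most posterior gene of the cluster, was at 0.979, 0.765 and 0.752 on day 0, 1.3, 0.903 and 0.695 on day 3 and 2.42, 1.68 and 2.88 on day 6. It had not passed by day 3: day 3 overlapped day 0 (adjusted p = 0.621), and all day 6 libraries were above both earlier days. The log2 fold change on day 6 was 1.47 against day 0 (SE 0.29, adjusted p = 0.00109) and 1.26 against day 3 (SE 0.28, adjusted p = 0.00912). Without D6_3 the day 6 against day 3 call was lost (adjusted p = 0.0504, in a range of 0.003 to 0.0504 over the alternatives). PRAC1 and PRAC2, which lie between HOXB13 and HOXB9, held 0 and 0 counts on day 0, 1 and 0 on day 3, and 2 and 8 on day 6.

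HOXB3 was at 1.99, 1.53 and 2.63 on day 0, 2.83, 3.24 and 2.65 on day 3 and 3.6, 3.19 and 3.74 on day 6. Day 6 was above day 0 in all libraries (log2 fold change 0.78 with SE 0.20 and adjusted p = 0.00577), and day 3 lay between without passing (adjusted p = 0.0607). It did pass on day 3 without D0_3 (0.0169), with limma-voom (0.0463) and with library size only (0.0474), in a range up to 0.191. HOXB7, the most abundant HOXB gene, was at 10.6, 14.7 and 11.1 on day 0, 14, 13.8 and 13.6 on day 3 and 14.9, 17 and 13.9 on day 6. Its rise on day 6 was small and its libraries overlapped (log2 fold change 0.33 with SE 0.12 and adjusted p = 0.0391). That call was lost on leaving out any 1 library other than D0_2 and D6_3 (adjusted p 0.0572 to 0.151) and in a fit of only the 2 days (0.0775), in a range of 0.000538 to 0.151. Without D0_2 HOXB7 passed on day 3 as well (0.00949, in a range up to 0.594).

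The central genes HOXB4 and HOXB6 did not pass in any comparison. HOXB4 was at 3.13, 2.38 and 3.29 on day 0, 2.79, 2.94 and 2.7 on day 3 and 2.92, 2.76 and 3.19 on day 6. HOXB6 was at 2.02, 1.53 and 2.35 on day 0, 2.35, 2.48 and 2.78 on day 3 and 2.39, 2.8 and 2.15 on day 6. Both overlapped between day 0 and each later day. Summed over its 10 genes the HOXB level went from 20.7 ± 1.18 to 24.7 ± 0.461 and 30 ± 0.741 CPM, and genes 9 and 13 supplied 13.1% to 16.1% of its counts on day 6, against 3.5% to 5.03% on day 0.

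**Figure D3:**
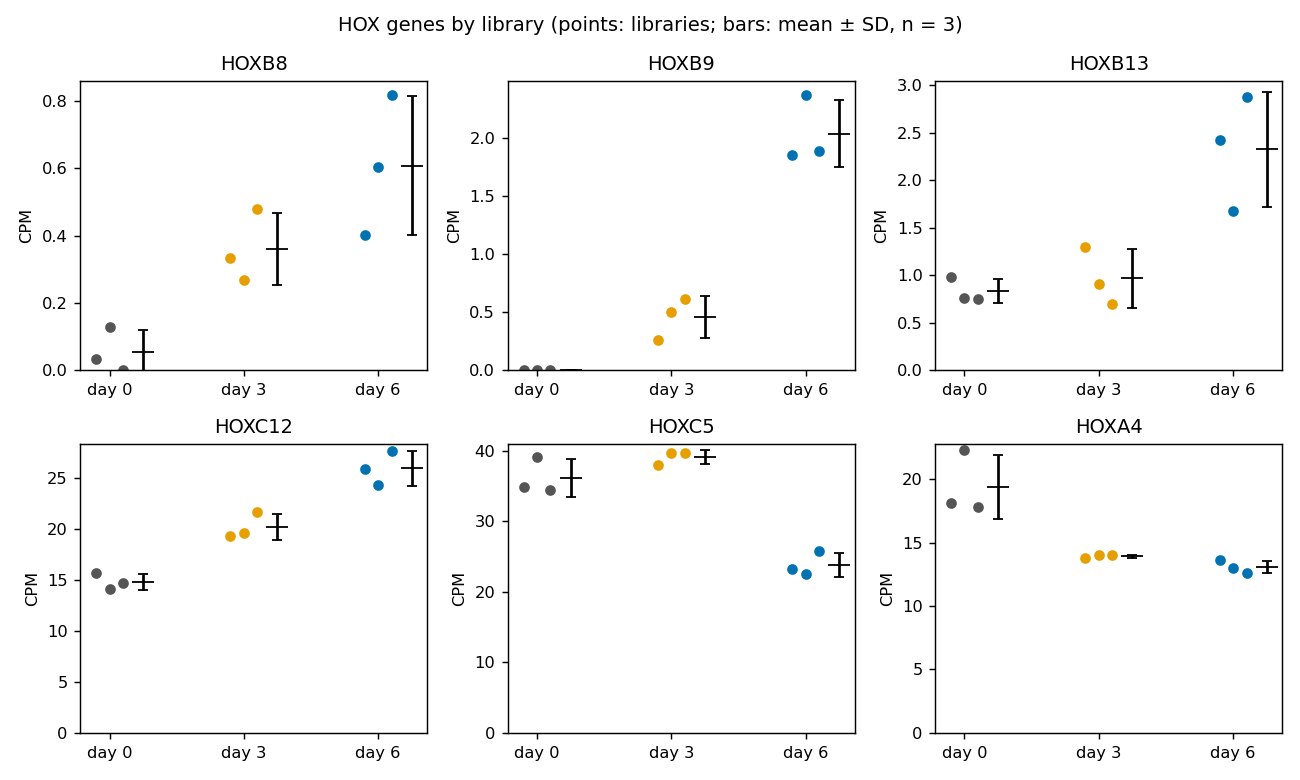
Levels in CPM of 6 HOX genes in each library, with mean and SD over n = 3 beside the points. HOXB8, HOXB9 and HOXC12 were higher on both later days, HOXB13 only on day 6, HOXC5 was lower only on day 6, and HOXA4 was lower on both later days.

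In the HOXC cluster (chromosome 12, 53938765 to 54056030) genes of the posterior end rose while HOXC5 and HOXC8 fell. HOXC12, a posterior factor, was at 15.7, 14.1 and 14.7 on day 0, 19.3, 19.6 and 21.7 on day 3 and 25.9, 24.3 and 27.7 on day 6. The 3 days did not overlap and each was above the one before. The log2 fold changes against day 0 were 0.44 on day 3 (SE 0.09, adjusted p = 0.00223) and 0.81 on day 6 (SE 0.09, adjusted p = 1.35e-05), and both calls held in every alternative. The step from day 3 to day 6 (log2 fold change 0.36 with SE 0.09 and adjusted p = 0.0127) was lost without D3_1 (0.0677), D3_2 (0.0719) or D6_3 (0.0599), in a range of 0.00292 to 0.0719.

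HOXC11 was at 6.69, 9.01 and 6.77 on day 0, 10.9, 9.1 and 9.43 on day 3 and 11.7, 10.9 and 11.3 on day 6. All libraries of both later days lay above day 0, with D0_2 close below D3_2. The day 6 rise (log2 fold change 0.59 with SE 0.13 and adjusted p = 0.00214) held throughout. The day 3 rise (log2 fold change 0.39 with SE 0.13 and adjusted p = 0.0308) was lost in a fit of only the 2 days (0.0681) and without D0_1 (0.107), D0_3 (0.0935), D3_1 (0.13), D3_3 (0.0641) or D6_1 (0.0502), in a range of 0.00117 to 0.13.

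HOXC13, which is known for its role in hair and nail keratin genes, was at 9.86, 12 and 10.3 on day 0, 12.7, 12.6 and 12.8 on day 3 and 14.5, 13.3 and 14.5 on day 6. It was higher in all day 6 libraries than in all day 0 libraries (log2 fold change 0.39 with SE 0.10 and adjusted p = 0.00463). On day 3 it did not pass (adjusted p = 0.0637), though it did without D0_2 (0.00765) and with library size only (0.00919), in a range up to 0.203.

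HOXC9 was at 12.3, 14.4 and 13.3 on day 0, 15.6, 16.7 and 17.2 on day 3 and 16.2, 16.5 and 16.6 on day 6. Both later days were above day 0 in every library (log2 fold change 0.31 with SE 0.09 and adjusted p = 0.0155 on day 3, log2 fold change 0.30 with SE 0.09 and adjusted p = 0.0119 on day 6), and day 6 overlapped day 3 (adjusted p = 0.978 between them). Without D0_1 the adjusted p was 0.0639 on day 3 and 0.0572 on day 6. The day 3 call was also lost without D3_2 (0.0582) or D3_3 (0.0752), in a range of 0.00266 to 0.0752 on day 3 and 0.000944 to 0.0572 on day 6. HOXC10, the most abundant HOXC gene per kilobase, was at 72.8, 95.7 and 75.9 on day 0, 82.2, 82.2 and 85.4 on day 3 and 84.7, 81 and 91.7 on day 6. It overlapped between all days and did not pass, except on day 6 without D0_2 (0.0183, in a range up to 0.974).

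HOXC5, a central gene, was at 34.9, 39.2 and 34.4 on day 0, 38, 39.7 and 39.7 on day 3 and 23.2, 22.6 and 25.8 on day 6. It overlapped between day 0 and day 3 and was lower in every day 6 library than in any earlier one. The fall was -0.60 on the log2 scale against day 0 (SE 0.08, adjusted p = 8.05e-05) and -0.71 against day 3 (SE 0.08, adjusted p = 9.74e-05), and both calls held in every alternative. With library size only, HOXC5 was called higher on day 3 (adjusted p = 0.0412, in a range up to 0.546).

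HOXC4, which shares its RefSeq start window with HOXC5, was at 72.2, 87.5 and 73.8 on day 0, 81.1, 76.8 and 77.8 on day 3 and 68.9, 69.4 and 73 on day 6. It did not pass in any comparison, except between day 3 and day 6 without D0_2 (0.033, in a range up to 0.454). The ratio of HOXC5 to HOXC4 counts within a library, which does not depend on scaling, was 0.448 to 0.484 on day 0, 0.469 to 0.516 on day 3 and 0.325 to 0.354 on day 6. It was thus lower on day 6 in every library, although both genes have exons in common.

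HOXC8 was at 25.5, 28.4 and 25.4 on day 0, 25.2, 25.1 and 26.2 on day 3 and 19.9, 19.6 and 22.2 on day 6. It overlapped between day 0 and day 3, and every day 6 library was lower (log2 fold change -0.36 with SE 0.08 and adjusted p = 0.00283 against day 0). Its fall from day 3 (log2 fold change -0.31 with SE 0.08 and adjusted p = 0.0223) was lost without D3_1 (0.0632), D3_2 (0.0709), D3_3 (0.0963), D6_1 (0.0929) or D6_2 (0.076), in a range of 0.00372 to 0.0963. HOXC6 was at 28.8, 34.3 and 30.9 on day 0, 30.4, 32 and 33 on day 3 and 36.6, 35 and 35.3 on day 6. Its day 6 libraries were all above day 0 but it did not pass (adjusted p = 0.0676). It did pass without D0_2 (0.00558), with library size only (0.00297) and when genes averaging under 1 CPM were dropped (0.0374), in a range up to 0.254.

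Within the HOXC cluster the counts thus moved towards its posterior genes. Genes 9 to 13 gave 42.1% to 43.4% of the HOXC counts of a library on day 0, 44.6% to 45.3% on day 3 and 49.9% to 50.9% on day 6, and no library of one day overlapped another day. The sum of the cluster overlapped between days, at 299.6 ± 30.5 CPM on day 0, 317 ± 5.14 on day 3 and 304 ± 13 on day 6. In HOXA the same share was 61.9% to 65.2% on day 0 and 62.4% to 63.8% on day 6, and in HOXD 72.9% to 74.6% and 74% to 76.5%, with overlap between the days in both. These shares are descriptions, with no test.

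**Figure D4:**
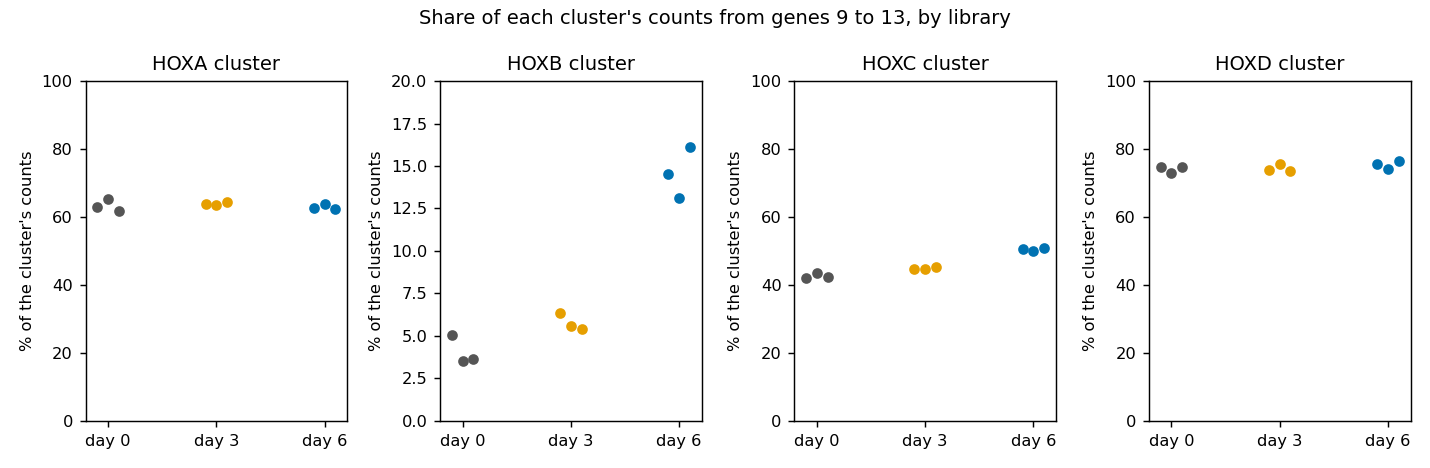
Share of each cluster's counts that came from genes 9 to 13, in percent, for each library by day (points), with a narrower axis for HOXB. The share was higher on day 6 than on day 0 in every library of HOXB (13.1% to 16.1% against 3.5% to 5.03%) and HOXC (49.9% to 50.9% against 42.1% to 43.4%), while days overlapped in HOXA and HOXD.

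In the HOXA cluster (chromosome 7, 27092993 to 27200106) most called genes fell by less than 2-fold. HOXA4 was at 18.1, 22.3 and 17.8 on day 0, 13.8, 14 and 14 on day 3 and 13.6, 13 and 12.6 on day 6. It was lower in every library of both later days than on day 0 (log2 fold change -0.48 with SE 0.10 and adjusted p = 0.00271 on day 3 and -0.57, SE 0.10, adjusted p = 0.000461 on day 6), and both calls held in every alternative. HOXA5 was at 22, 28.3 and 23.3 on day 0, 18.6, 19.5 and 18.8 on day 3 and 21.4, 22 and 21.6 on day 6. Its fall was seen on day 3 (log2 fold change -0.37 with SE 0.10 and adjusted p = 0.00981) but not on day 6 (adjusted p = 0.138, and 0.0497 without D0_1, in a range up to 0.585). Between day 3 and day 6 it passed only without D0_2 (0.0429, in a range up to 0.41).

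HOXA7 was at 37.5, 42.5 and 39.9 on day 0, 37.1, 35.2 and 37.2 on day 3 and 30.8, 27.4 and 31.2 on day 6. Day 3 was below day 0 in every library without passing (adjusted p = 0.209), and day 6 passed (log2 fold change -0.42 with SE 0.08 and adjusted p = 0.000847 against day 0). The step from day 3 (log2 fold change -0.29 with SE 0.08 and adjusted p = 0.0277) was lost without D3_1 (0.0954), D3_2 (0.0645), D3_3 (0.108), D6_1 (0.0635) or D6_2 (0.0966), in a range of 0.00413 to 0.108. HOXA-AS3 covers much of HOXA7 on the other strand, and reads of both cannot be told apart. HOXA9, known as an oncogene in leukaemia, was at 122, 158 and 127 on day 0, 122, 114 and 121 on day 3 and 112, 111 and 109.9 on day 6. Day 6 was below day 0 in every library (log2 fold change -0.29 with SE 0.09 and adjusted p = 0.0218), with D0_2 the highest library. This call was lost with library size only (0.0995), in a fit of the 2 days (0.0587), without D6_2 (0.0544) and without D6_3 (0.0545), in a range of 0.00808 to 0.0995.

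HOXA10, which acts in the developing uterus, was at 61.4, 71.9 and 54.6 on day 0, 53, 56.1 and 60.2 on day 3 and 51.4, 50.4 and 47.1 on day 6. Its day 6 libraries lay below all day 0 libraries (log2 fold change -0.34 with SE 0.10 and adjusted p = 0.0128), and the call was lost with library size only (0.0535, in a range of 0.00311 to 0.0535). Between day 3 and day 6 it passed only without D0_2 (0.0451) and in a fit of the 2 days (0.0454), in a range up to 0.541.

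HOXA3, an anterior gene needed for pharyngeal organs, was the only HOXA gene that rose, at 11.6, 12.4 and 12.4 on day 0, 12.8, 11.2 and 11.1 on day 3 and 15.3, 15.2 and 13.3 on day 6. The rise on day 6 was small (log2 fold change 0.27 with SE 0.10 and adjusted p = 0.0325 against day 0, log2 fold change 0.32 with SE 0.10 and adjusted p = 0.0446 against day 3). Both calls were lost in DESeq2 (0.0598 and 0.0511), without a filter on low counts (0.0903 and 0.0809), and without D0_1 (0.104 and 0.0525), D0_3 (0.0566 and 0.0578), D3_2 (0.0503 and 0.177), D3_3 (0.0522 and 0.166), D6_1 (0.126 and 0.153) or D6_2 (0.0899 and 0.13). The first was also lost in a fit of the 2 days (0.0603) and the second with the replicate number as a block (0.0641). The ranges were 0.00739 to 0.126 and 0.0149 to 0.177.

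HOXA2, HOXA6 and HOXA11 did not pass in any comparison. HOXA2, an anterior gene, was at 1.24, 1.19 and 1.97 on day 0, 1.3, 1.3 and 0.913 on day 3 and 1.68, 2.15 and 1.42 on day 6. Its libraries overlapped between day 0 and each later day. HOXA6 was at 12.1, 6.04 and 12.6 on day 0, 11.6, 12.4 and 10.9 on day 3 and 11.9, 9.43 and 11.3 on day 6, with D0_2 the lowest of all 9 libraries. HOXA11 was at 16.8, 18.9 and 18.4 on day 0, 20, 20.3 and 21.9 on day 3 and 19.8, 18.7 and 19.5 on day 6. All its day 3 libraries were above day 0, and it passed on day 3 without D0_2 (0.0295) and with library size only (0.0105), in a range up to 0.245. On day 6 it passed with library size only (0.029, in a range up to 0.697). The summed HOXA level was 317 to 383 CPM on day 0, 301 to 314 on day 3 and 283 to 294 on day 6, each day below the one before. As a share of all HOX counts in a library, HOXA went from 42.7% to 43.8% on day 0 down to 39.8% to 40.3% on day 3 and 38.3% to 39.7% on day 6, with no overlap between days.

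In the HOXD cluster (chromosome 2, 176092891 to 176190907) no tested gene was called higher. HOXD12, not tested, had 15, 24 and 10 counts on the 3 days, and its day 3 libraries lay above those of both other days. HOXD13, the most posterior gene, known for limb and digit patterning, was at 35.7, 47.7 and 38.8 on day 0, 28.8, 32.3 and 32.4 on day 3 and 31.4, 29.1 and 29.8 on day 6. It was lower in every library of both later days (log2 fold change -0.38 with SE 0.10 and adjusted p = 0.0123 on day 3, and -0.43, SE 0.10, adjusted p = 0.00414 on day 6). The day 3 call was lost without D3_1 (0.0602, in a range of 0.00344 to 0.0602). HOXD8 was at 21.3, 26.7 and 21.4 on day 0, 19.9, 20 and 22 on day 3 and 18.9, 18.7 and 16.9 on day 6. Its day 6 libraries were all below day 0 (log2 fold change -0.35 with SE 0.10 and adjusted p = 0.0139), and the call was lost with library size only (0.0549) and without D6_3 (0.0528), in a range of 0.00676 to 0.0549.

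The remaining tested HOXD genes did not pass in any comparison. HOXD10 was at 37.1, 31.3 and 35.9 on day 0, 33.2, 32.9 and 33.6 on day 3 and 35.9, 32.3 and 33.5 on day 6. HOXD11 was at 15.1, 11.3 and 13.1 on day 0, 15, 15.4 and 14.1 on day 3 and 13.8, 13.1 and 13.3 on day 6. These neighbours share exons, and both overlapped between day 0 and the later days. HOXD9 was at 6.95, 7.86 and 5.55 on day 0, 6.19, 6.15 and 6.87 on day 3 and 5.24, 5.51 and 6.37 on day 6, and it passed on day 6 only without D0_3 (0.0344, in a range up to 0.404). HOXD4 was at 5.45, 5.06 and 4.7 on day 0, 4.66, 4.11 and 4.96 on day 3 and 3.76, 5.04 and 4.05 on day 6. HOXD3 was at 3.82, 2 and 3.1 on day 0, 3.39, 2.27 and 3.22 on day 3 and 3.06, 2.93 and 2.2 on day 6. Of these, none was apart between day 0 and a later day. HOXD1 was at 1.93, 2.68 and 2.63 on day 0, 1.68, 1.91 and 1.48 on day 3 and 2.22, 1.42 and 2.45 on day 6, where day 3 lay below day 0 in all libraries but the test was not passed (adjusted p = 0.116).

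Paralogues with numbers 7, 8, 9 and 13 included both genes that rose and genes that fell by day 6. HOXB7 rose and HOXA7 fell. Among the number 9 genes HOXB9 and HOXC9 rose by day 6, HOXA9 fell and HOXD9 did not pass, and among the number 13 genes HOXB13 and HOXC13 rose, HOXD13 fell and HOXA13 did not pass. Of the number 8 genes HOXB8 rose and HOXC8 and HOXD8 fell. Of the number 3 genes HOXA3 and HOXB3 rose and HOXD3 did not pass, and no other number had calls in both directions. Position alone did not give a single direction either: of the 15 tested genes with numbers 9 to 13, 6 rose and 3 fell by day 6, of the 15 with numbers 4 to 8, 2 rose and 5 fell, and of the 6 with numbers 1 to 3, 2 rose and none fell. By cluster, 5 of 8 HOXB genes rose and none fell by day 6, and in HOXC 4 of 9 rose and 2 fell. In HOXA 1 of 11 rose and 4 fell, and in HOXD none of 8 rose and 2 fell. Beside these counts, 28.9% of all tested genes rose and 25.7% fell by day 6. HOXB8 and HOXB9 passed the filter through the later days, so counts that include them support nothing about a cluster or position. HOXB5, HOXB8, HOXB9 and HOXB13 had day 0 means under 1 CPM, a level at which 55.1% of all tested genes rose.

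HOX proteins bind DNA together with TALE cofactors such as the PBX, MEIS and PKNOX proteins. The list of TALE genes also holds TGIF1, which rose by day 6, and TGIF2. Of its 11 genes, all tested, 1 rose and 1 fell on day 3 (22.5% and 18.1% of all tested genes did). By day 6, 4 rose and 1 fell (28.9% and 25.7% of all), and between day 3 and day 6, 2 rose and 2 fell (11.5% and 4.76% of all). Their median log2 fold change on day 6 was 0.12, beside 0.01 over all tested genes. MEIS3 and PKNOX2 passed the filter only through the later days, where they are high, so these counts and this median support nothing about the group. MEIS3 changed most, at 0.163, 0.085 and 0.047 on day 0, 1.6, 1.3 and 1 on day 3 and 4.24, 4.35 and 4.91 on day 6, with no overlap between days. Its pooled counts on day 6 were 42.2 (95% interval 21.2 to 98.5) times the day 0 level (adjusted p = 1.23e-07). PBX2 rose from 77.9 ± 2.63 to 96 ± 2.7 CPM on day 6 (adjusted p = 0.00196) and PBX3 fell from 43.9 ± 2.51 to 32.1 ± 1.81 (adjusted p = 0.000348). PKNOX2 had 6 counts on day 0 and 39 on day 6, a ratio of 6.44 (95% interval 2.71 to 18.6).

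The homeobox genes closest to HOX, those of the ParaHox group and its EVX, MNX, GBX and MEOX relatives, were mostly too low to test: 4 of 13 were tested, and GSX1, CDX1 and CDX4 had no count in any library. All 4 rose by day 6 and 3 by day 3, where 28.9% and 22.5% of all tested genes rose. CDX2 and PDX1 passed the filter only through the later days, where they are high, so this count supports nothing about the group. CDX2, an intestinal regulator that in embryos also acts on HOX genes, was at 0 in all day 0 libraries and at 0.639, 0.646 and 0.56 CPM on day 6, at least 15.5-fold higher (adjusted p = 6.8e-05). PDX1 had 1 count on day 0 and 59 on day 6, a ratio of 58.4 (95% interval 10.1 to 2346). GBX2 went from 2.13 ± 0.475 to 3.38 ± 0.2 and MNX1 from 14.9 ± 0.881 to 18.2 ± 1.68 (adjusted p = 0.00829 and 0.0199).

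A list of 14 genes that act on HOX clusters held the MLL complexes and their partners, demethylases of the Polycomb mark and CTCF. Of the 14, 3 fell on day 3 and 7 by day 6, and none rose, with a day 6 median log2 fold change of -0.15. Of all tested genes 18.1% fell on day 3, and 25.7% fell and 28.9% rose by day 6. The MLL core subunits WDR5 (from 102 ± 5.88 to 68.3 ± 1.49, adjusted p = 3.39e-05) and RBBP5 (from 52.9 ± 6.32 to 37.9 ± 2.35, 0.000965) fell, as did CTCF (from 172 ± 4.32 to 139 ± 3.64, 0.00176) and the demethylase gene KDM6A (from 85.3 ± 6.75 to 65.2 ± 4.04, 0.00696). KMT2A, the methyltransferase best known for HOX maintenance, was at 204 ± 66.3 and 188 ± 2.2 CPM and did not pass. Its day 0 libraries were at 245, 128 and 239.9, with D0_2 the lowest, and its day 6 libraries at 190.2, 188 and 186. D0_1 and D0_3 were thus above every day 6 library, and a call without D0_2 is not given. KMT2A is named although outside the 4 lowest p, a choice made after its values were seen. Retinoid receptors, which bind retinoic acid, an inducer of HOX genes in embryos, rose in 3 of 5 tested cases on day 3 and 4 of 5 by day 6, where 22.5% and 28.9% of all tested genes rose. RARB passed the filter only through day 6, so this count supports nothing about the group. RARG went from 10.5 ± 0.294 to 16.8 ± 1.56, RXRB from 39.6 ± 4.71 to 54.4 ± 2.67 and RXRA from 22.8 ± 4.64 to 35.4 ± 4.29. RARB was at 0 on day 0 and had 42 counts on day 6, at least 13.9-fold higher (adjusted p = 0.000162).

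Genes that flank the clusters were examined as the 5 nearest protein-coding genes on each side. Of 40, 33 were tested, and 8 rose and 11 fell by day 6 (28.9% and 25.7% of all tested genes did), with a median log2 fold change of -0.08. Those with the lowest p were CALCOCO1 beside HOXC (from 12.8 ± 0.321 to 32.4 ± 2.64) and CREB5 near HOXA (from 21 ± 1.77 to 45.8 ± 4.1), which rose, and HNRNPA3 (from 882 ± 54.4 to 483 ± 36.9) and AGPS (from 136 ± 3.33 to 93.1 ± 6.12) near HOXD, which fell. Named for their position, after their values were seen, the genes next to the clusters were as follows. Of the nearest genes to HOXB, SKAP1 had 2, 3 and 61 counts on the 3 days, a day 6 ratio of 30.2 (95% interval 8.01 to 255) with adjusted p = 0.00012. SKAP1 passed the filter only through day 6, where it is high, so its rise supports nothing about the flanking genes. TTLL6, not tested, had 1, 3 and 20 counts. EVX1 and EVX2, homeobox genes at the posterior ends of HOXA and HOXD, had 1 count each on day 0 and 11 and 3 on day 6. MTX2, at the anterior end of HOXD, fell from 70.9 ± 15.9 to 46.3 ± 1.6 (adjusted p = 0.00137) and SKAP2, at the anterior end of HOXA, was at 84.5 ± 9.5 and 83.1 ± 7.51 and did not pass.

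Markers of other cell types moved over the same days. The summed level of 8 squamous markers, mostly KRT13 (mean 10.3 ± 0.652 CPM on day 0 and 17.7 ± 1.75 on day 6), was 11.2 to 12.2 CPM on day 0 and 26.4 to 30.1 on day 6, and that of 6 fibroblast markers, on day 6 mostly COL1A1, 0.85 to 1.46 and 10.2 to 12.2, with LUM at 0 on day 0. KRT5 was at 1.05 ± 0.0999 CPM on day 0, 0.416 ± 0.175 on day 3, where it was called lower, and 6.15 ± 0.851 on day 6, where it was called higher. Of 12 neuroendocrine markers 8 were tested, of which 3 rose and 1 fell by day 6 (28.9% and 25.7% of all tested genes did). NCAM1 rose from 6.25 ± 0.761 to 20 ± 1.12 CPM (adjusted p = 1.12e-07). Leukocyte markers summed to 489 to 642 CPM on day 0 and 326 to 329.9 on day 6, nearly all of it LYZ, with CD3E at 0 on both days. Endothelial markers summed to at most 2.24 CPM in any library. The part of these changes in the HOX levels was not tested, and in bulk RNA fewer cells expressing a gene and less RNA per cell cannot be told apart.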

How the data were processed

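Poly-A RNA-seq libraries of TYUC-1 cells were sequenced on day 0, 3 and 6, with 3 libraries each. The authors deposited estimated counts per gene. Tools listed in the submitters' processing notes are kallisto 0.44.0, bcl2fastq 2.19 and DESeq2, with the builds GRCh38, GRCm38 and hg38, no role given. How transcripts were summed to genes and whether strand was used are not given in the sources used here. Libraries held 21638874 to 31235055 counts.

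Counts were rounded to whole numbers, genes were kept by edgeR's filterByExpr with a minimum count of 10, libraries were scaled by TMM, and all 9 libraries were fitted in one quasi-likelihood model (edgeR 4.0.16, limma 3.58.1, R 4.3.3). Benjamini-Hochberg adjustment ran over all 15345 genes tested, with a threshold of 0.05. The code was tested on simulated data. Alternatives were DESeq2 1.42.0, limma-voom, other scalings and filters, a threshold of 0.01, a fit of only the 2 days, the replicate number as a block, and leaving out each library. Ratios of pooled counts have 95% intervals that cover counting error only, and a group at 0 was set to 3 counts over the group.

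Coordinates are from GENCODE release 29 (GRCh38), 1-based, and start windows from RefSeq (GRCh38.p14). A planned comparison of proteins was not made, and homeobox DNA was compared instead. The HOX genes, the gene lists and the markers were chosen with earlier results of these data known. Library values are given for HOX genes that passed in a comparison or had a mean of at least 1 CPM on any day, and up to 4 genes of lowest p are named for each other list. Some genes and sequences are not reported here, though counts and sums include them.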

Additional observations from a re-analysis of the deposited data

How the results depend on the processing

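No called HOX gene changed direction under any alternative. With a threshold of 0.01, 2 HOX genes were higher on day 3, 5 lower on day 6, and 2 higher and 1 lower between day 3 and day 6. With library size as the only scaling, 9 were higher on day 3 and 5 lower on day 6. Without genes averaging under 1 CPM, 3 were higher on day 3, and in a fit of only the 2 days 2 were. Leaving out each library in turn gave 3 to 8 higher and 2 to 3 lower on day 3, 7 to 12 higher and 6 to 9 lower on day 6, and 2 to 5 higher and 1 to 5 lower between day 3 and day 6. Call changes of single genes stand beside them, except those at the threshold of 0.01. With the replicate number as a block, 5 were higher and 3 lower on day 3, 10 and 8 on day 6, and 3 and 3 between day 3 and day 6. Libraries with the same number had correlations of their deviations from -0.159 to 0.229, and not every library correlated best with its own number, so the numbers were not taken as a pairing. Low counts limit HOXB8, HOXB9, HOXB13, HOXA13, HOXB5 and HOXD12, all under 3 CPM.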
